A study of Mus musculus with 24 samples.

Results

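The tight junction genes of brain endothelium are 9 of the 53465 genes listed for each library. They were chosen by name: the claudins Cldn5 and Cldn12, occludin (Ocln), tricellulin (Marveld2), the scaffold proteins Tjp1 and Cgnl1, and the adhesion molecules F11r, Jam2 and Esam. The rule uses no measured value. RNA was sequenced from endothelial cells that had been sorted from the mouse brain by CD31 (PECAM1), a surface protein of endothelium, with 1 library per mouse. The mice were on the C57BL/6J strain and were kept in light-dark cycles with lights on from ZT0 to ZT12 (zeitgeber time in h). The 12 control mice were Bmal1fl/fl, and the 12 mutant mice were Bmal1fl/fl; Tie2cre, so that both genotypes carried the floxed allele and only the mutants carried the Cre. From each genotype 2 mice were taken at every 4th hour from ZT2 to ZT22, which gives 6 time points. Male and female mice were used, and their ages at collection are not given in the sources used here. Tie2 drives Cre in endothelium throughout the body and in part of the blood cell lineage, so that the deletion is not limited to the brain. The comparisons address whether loss of the endothelial clock, or the time of day, changed the genes that seal the blood-brain barrier.

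Tight junctions close the cleft between neighbouring endothelial cells, and in brain capillaries they are continuous, which keeps solutes from passing between the cells. Claudins and occludin span the membrane and meet their counterparts on the next cell. Scaffold proteins hold them to the actin cytoskeleton on the inner face, and adhesion molecules of the immunoglobulin superfamily help to place the junction along the contact. The clock transcription factor BMAL1, encoded by Arntl, binds DNA with CLOCK at E-box sequences.

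All 9 genes were measured well enough to be tested: each reached 5 reads in no fewer than 6 mice of one genotype, the filter that 15493 genes passed. Together they took 0.409 to 0.612% of the reads of a library (median 0.499%). The deposited reads had been normalised to totals of 6136404 to 6648311 per library. The exon that was floxed is not resolved in a read count over the whole gene, so the Arntl counts do not check the deletion. Arntl ran from 1 to 468 reads in control mice and from 81 to 354 in mutants. At ZT10 and ZT14 the control mice had 1, 22, 15 and 13 Arntl reads, against 120, 169, 251 and 354 in the mutants.

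The libraries fell into 2 sets by their marker genes. The 8 ZT6 and ZT18 libraries carry consecutive library numbers in their labels and differed from the rest in marker genes of several cell types. The summed level of 12 microglia and macrophage markers was 244 to 428 CPM (reads scaled by library size) there and 2097 to 5659 CPM in the other 16 libraries, without overlap. The 9 astrocyte markers summed to 759 to 1248 CPM against 1704 to 3364 CPM, also without overlap. The 15 endothelial markers, Cldn5 among them, were all detected, and summed to 22935 to 24264 CPM at ZT6 and ZT18 and 14907 to 21114 CPM in the rest, again without overlap. The 12 pericyte and smooth muscle markers, of cells that wrap brain vessels, were also higher, at 2516 to 4049 CPM against 1568 to 3144 CPM, with overlap. Mitochondrial genes took 2.68 to 3.90% of the reads against 5.78 to 17.4%. Time of day and the library numbers cannot be told apart between these sets, and in bulk samples fewer cells of a type and less RNA per cell cannot be told apart. The level differences over time are therefore also given within each set. Among the other 16 libraries, control ZT2 replicate 1 and both ZT14 mutants carry a run of library numbers apart from the rest. These were not treated as a separate set. The labels also name 2 index sequences (i5) of the library adapters, and these are uneven between genotypes: the 8 ZT6 and ZT18 libraries share one, and of the other 16 the 8 mutants carry the second index against 4 of the 8 controls.

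Per base of exon, Cldn5 was the most abundant of the 9 genes, and Cldn12 and Marveld2 were far below the rest. Levels of different genes were compared as normalised reads per kb of exon, over the merged exons of all transcripts. In control mice Cldn5 stood at 3811 ± 1171 reads per kb (SD, n = 12), followed by Tjp1 at 1330 ± 205, Cgnl1 at 1084 ± 188, Esam at 723 ± 134 and Ocln at 656 ± 120. Jam2 at 304 ± 70.2 and F11r at 255 ± 38.3 came next, and Cldn12 at 28.9 ± 9.92 and Marveld2 at 15.3 ± 2.14 reads per kb were last. Cldn5 was above Tjp1 in 12 of 12 control mice, by 1.46 ± 0.60 on the log2 scale (SD). Of the 8 pairs of neighbours in this order, 7 had a mean ratio that passed in control mice after adjustment over the 8 pairs (exact permutation test of the log2 ratio within each mouse, two-sided). For 6 of these pairs p was 0.000488, the smallest the test can give with 12 mice. Esam and Ocln differed by 0.14 ± 0.22 on the log2 scale (SD), in the same order in 10 of 12 mice, so that their mean passed but by less than the spread between mice (exact permutation test, p = 0.0430, adjusted p = 0.0491). Jam2 and F11r were not separated, with a difference of 0.23 ± 0.52 (SD, exact permutation test, p = 0.162). In mutant mice the order was the same except that F11r stood above Jam2 by 0.11, which was within their spread (exact permutation test, p = 0.163), and Cldn12 was no longer separated from Marveld2 (exact permutation test, p = 0.133). The positions of Esam and Jam2 rest on the length used. With the longest transcript in place of the merged exons, Cgnl1 and Esam were not separated (exact permutation test, p = 0.0830 in controls and 0.868 in mutants), and Jam2 stood above F11r in both genotypes (exact permutation test, p = 0.00293 and 0.00537).

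**Figure D1:**
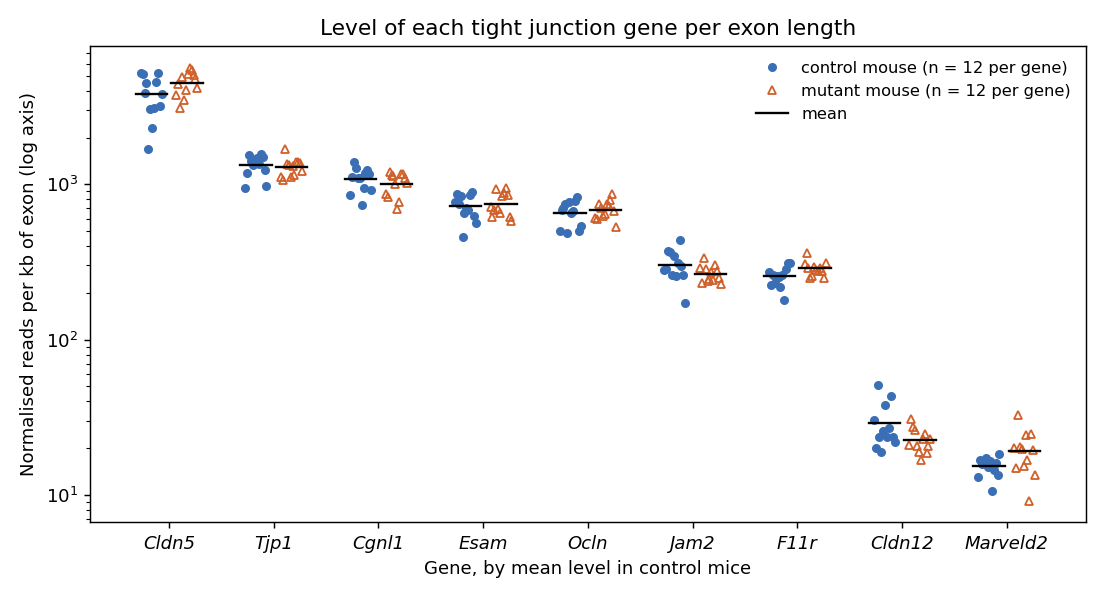
Normalised reads per kb of merged exon (log axis) for each gene, with 1 point per mouse, 12 control and 12 mutant mice per gene, and a line at the mean. Cldn5 lies highest and Cldn12 and Marveld2 lie lowest in both genotypes, while the points of Jam2 and F11r overlap.

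Other claudins were scarce. Of 23 further claudins that were listed, 9 had no read in any library, 19 had a mean under 5 reads, and 4 passed the filter. Cldn2, a pore-forming claudin of leaky epithelia such as the choroid plexus, had the highest mean of them at 39.1 reads.

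All 9 genes are protein-coding, and no other annotated gene shares exon bases with any of them. In GRCm38 coordinates, Cldn5 (ENSMUSG00000041378) has a single exon and lies on chromosome 16 at 18776847 to 18778262. Cldn12 (ENSMUSG00000046798) is on chromosome 5 at 5489537 to 5514958. Ocln (ENSMUSG00000021638) lies on chromosome 13 at 100496507 to 100552718, and Marveld2 (ENSMUSG00000021636) lies 43238 bp away on the same strand, at 100595957 to 100616971. Tjp1 (ENSMUSG00000030516) is on chromosome 7 at 65296165 to 65527781, and Cgnl1 (ENSMUSG00000032232) is on chromosome 9 at 71626509 to 71771602. F11r (ENSMUSG00000038235) is on chromosome 1 at 171437535 to 171464603, Jam2 (ENSMUSG00000053062) on chromosome 16 at 84774123 to 84825928, and Esam (ENSMUSG00000001946) on chromosome 9 at 37528078 to 37538319.

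Promoters bear on the question because BMAL1 acts through the E-box CACGTG. RefSeq promoter windows of GRCm38.p6, from 250 bases before to 50 bases after a start site, were at hand for 7 of the 9 genes (11 windows), with none for Jam2 and Esam. None of the 11 windows held CACGTG, which is its own reverse complement and was present in 7.15% of 32851 mouse promoter windows. None held CACGTT or its reverse complement AACGTG, present in 4.68%. AGGTCA or TGACCT, the half-site of ROR and REV-ERB nuclear receptors, was in 1 of 11 windows, against 16.3% of all. CCGGAA or TTCCGG, a core sequence of ETS factors, was in 6 of 11, against 14.9%, and the GC box GGGCGG or CCGCCC was in 10 of 11, against 35.7%. Several windows of 1 gene overlap, so these are not 11 independent sequences. The ETS cores lie in Cldn12, Marveld2 and Ocln only. The Cldn12 windows all hold the same ETS site, and the Marveld2 windows likewise share a single one. The GC boxes of these 2 genes are also counted in more than 1 window. The GC content of the 11 windows was 45.3 to 73.3%, and in 10 of 11 it was above the median of all promoter windows, 52.7%. The windows of 3 genes are shown, 5′ to 3′ on the gene's strand with the motifs in capitals: Cldn5 as the most abundant gene (chr16:18776597-18776896, plus strand), Ocln as the window with the ROR half-site and an ETS core (chr13:100552669-100552968, minus strand), and Cgnl1 for its 3 GC boxes just before the start site (chr9:71771553-71771852, minus strand). A match is a description of letters and not of a bound site.
Cldn5: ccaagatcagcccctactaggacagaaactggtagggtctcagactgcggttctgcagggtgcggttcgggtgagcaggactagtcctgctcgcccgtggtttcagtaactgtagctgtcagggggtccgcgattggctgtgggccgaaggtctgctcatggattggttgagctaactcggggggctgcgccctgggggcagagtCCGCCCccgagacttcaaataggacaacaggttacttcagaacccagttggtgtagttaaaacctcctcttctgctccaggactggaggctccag
Ocln: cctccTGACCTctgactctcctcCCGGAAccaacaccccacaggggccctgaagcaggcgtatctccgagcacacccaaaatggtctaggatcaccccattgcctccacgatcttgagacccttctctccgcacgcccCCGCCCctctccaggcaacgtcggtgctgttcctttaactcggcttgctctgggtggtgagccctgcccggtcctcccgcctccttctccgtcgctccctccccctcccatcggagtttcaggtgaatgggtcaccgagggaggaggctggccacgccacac
Cgnl1: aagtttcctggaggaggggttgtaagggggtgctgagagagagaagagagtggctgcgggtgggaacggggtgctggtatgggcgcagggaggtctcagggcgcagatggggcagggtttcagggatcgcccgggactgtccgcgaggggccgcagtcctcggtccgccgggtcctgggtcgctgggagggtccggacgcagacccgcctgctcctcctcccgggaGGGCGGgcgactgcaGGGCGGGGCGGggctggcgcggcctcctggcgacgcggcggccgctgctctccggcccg

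In the Cldn5 window the capitals mark a GC box 45 bases before the start site. In the Ocln window they mark, from the left, the ROR half-site at 245 bases, the ETS core at 227 bases and a GC box at 112 bases before the start. In the Cgnl1 window GC boxes begin 24, 9 and 4 bases before the start, and the last 2 overlap.

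Between the genotypes, none of the 9 genes passed the test across all genes. edgeR's quasi-likelihood test with time point as a factor called 0 of 9 at an adjusted p under 0.05, against 0.271% of all genes tested, and DESeq2 also called 0. Without adjustment 2 of 9 had a p under 0.05, against 6.95% of all genes. The median log2 fold change of the 9 genes, mutant against control, was 0.06, and that of all genes was 0.00. Among the 14 endothelial markers other than Cldn5 the median was 0.05, with 0 called.

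Cldn5, the claudin that seals the paracellular route of brain capillaries against small molecules, had the smallest p. It ran from 2385 to 7427 reads in control mice (median 5432.5) and from 4404 to 8008 in mutants (median 6509.5). The groups overlapped widely, with 9 of 12 mutants above the control median. The mean was 5397 ± 1658 reads in controls and 6371 ± 1128 in mutants (SD, n = 12 each). The fitted log2 fold change was 0.28 ± 0.11 (SE), a fold of 1.22, which did not pass over all genes (edgeR's quasi-likelihood test with Benjamini-Hochberg adjustment, adjusted p = 0.554, with an unadjusted p of 0.0169). Of the alternatives run, Cldn5 passed in 1, without a filter on low reads (edgeR, adjusted p = 0.0315). There all 25174 genes with a read in any library were tested and 141 were called, against 42 in the main fit. Within the 16 libraries of ZT2, ZT10, ZT14 and ZT22 0 of 9 genes were called between genotypes, against 0.181% of all genes, and within the 8 libraries of ZT6 and ZT18 0 of 9, against 0.0194% (edgeR). At an unadjusted p under 0.05 there was 1 of 9 in each, Cldn5 in the 16 libraries, against 5.79% of all genes, and Jam2 in the 8, against 5.55%. Cldn12, a claudin without the PDZ-binding tail of most others, ran from 80 to 214 reads in controls (median 104.5) and from 71 to 131 in mutants (median 92.5). Its log2 fold change was -0.34 ± 0.17 (SE; edgeR, adjusted p = 0.741).

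The MARVEL proteins did not differ detectably. Ocln, an integral membrane protein of the junction strands, ran from 2047 to 3492 reads in controls (median 2849) and from 2244 to 3632 in mutants (median 2908.5). Its log2 fold change was 0.07 ± 0.07 (SE), with a 95% interval of -0.07 to 0.21 (edgeR, adjusted p = 0.915). Marveld2, which sits where 3 cells meet, ran from 36 to 62 reads in controls (median 53.5) and from 31 to 111 in mutants (median 66.5), with a log2 fold change of 0.31 ± 0.21 (SE; edgeR, adjusted p = 0.840). At these low reads its interval, -0.11 to 0.73, leaves a wide range of differences undetectable.

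The scaffold genes were close in the 2 genotypes. Tjp1 encodes ZO-1, the scaffold that ties claudins to actin. It ran from 7429 to 12201 reads in controls (median 10847.5) and from 8341 to 13230 in mutants (median 10328.5). Its log2 fold change was -0.04 ± 0.07 (SE), with an interval of -0.18 to 0.11 (edgeR, adjusted p = 0.970). Cgnl1 encodes paracingulin, a cytoplasmic protein of cell junctions. It ran from 5804 to 10878 reads in controls (median 8666) and from 5469 to 9386 in mutants (median 8295), a log2 fold change of -0.11 ± 0.07 (SE; edgeR, adjusted p = 0.809). For Cgnl1 3 of 12 controls lay above every mutant, and for Tjp1 8 of 12 controls lay above the mutant median.

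None of the adhesion molecules passed. F11r (JAM-A) ran from 481 to 832 reads in controls (median 689.5) and from 665 to 961 in mutants (median 758), and its log2 fold change was 0.17 ± 0.08 (SE; edgeR, adjusted p = 0.727, with an unadjusted p of 0.0525). Jam2 (JAM-B) ran from 1033 to 2649 reads in controls (median 1754.5) and from 1368 to 2039 in mutants (median 1577), and its log2 fold change was -0.18 ± 0.08 (SE; edgeR, adjusted p = 0.708, with an unadjusted p of 0.0473). Esam, an adhesion molecule of endothelium and platelets, ran from 1316 to 2547 reads in controls (median 2076.5) and from 1675 to 2728 in mutants (median 2014.5), with a log2 fold change of 0.06 ± 0.07 (SE; edgeR, adjusted p = 0.939). For F11r 9 of 12 mutants lay above the control median, and for Jam2 8 of 12 controls lay above the mutant median.

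**Figure D2:**
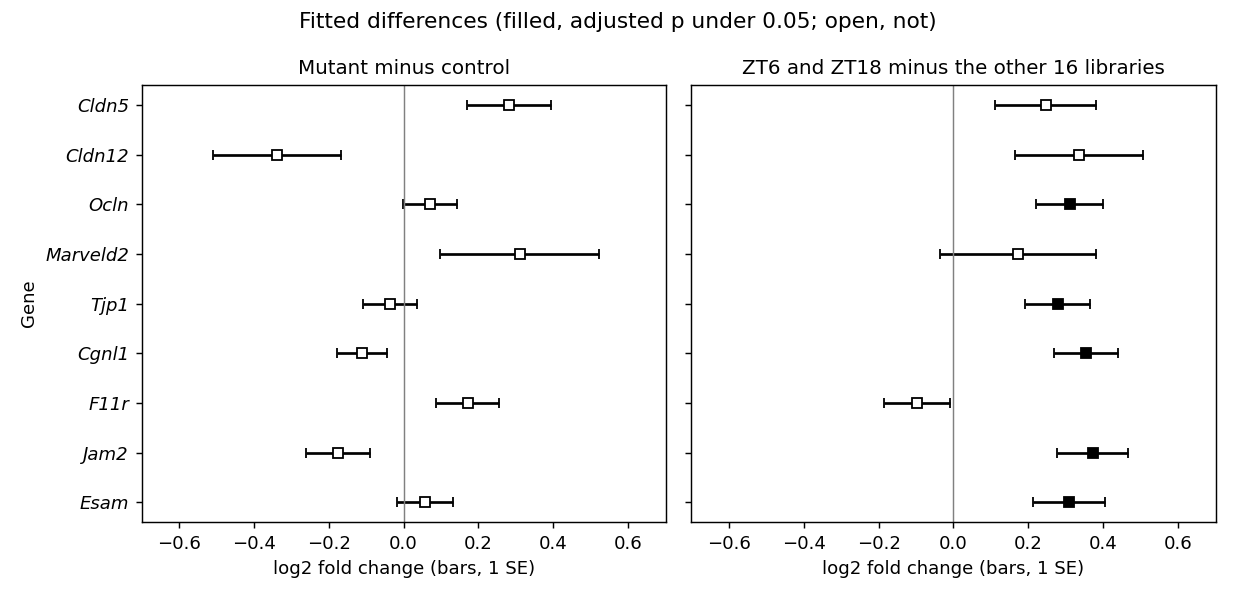
Fitted log2 fold change of each gene with 1 SE, for mutant minus control mice (left) and for the ZT6 and ZT18 libraries minus the other 16 (right). Filled squares mark an adjusted p under 0.05 over all genes (edgeR), which 0 of 9 genes reach on the left and 5 of 9 on the right.

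Of the other tight junction genes on a list of 67 names, 62 were matched and 39 passed the filter. Their median log2 fold change between genotypes was 0.04, with 0 called higher and 1 called lower. The called gene was Ildr2 (angulin-3), a receptor of tricellular junctions. It ran from 347 to 857 reads in controls (median 469) and from 201 to 448 in mutants (median 289), and it fell by 0.76 ± 0.13 on the log2 scale (SE; edgeR, adjusted p = 0.00398). Ildr2 was not called within the 16 libraries of ZT2, ZT10, ZT14 and ZT22 or within the 8 of ZT6 and ZT18 (edgeR, adjusted p = 0.119 and 0.0528), where its log2 fold changes were -0.65 and -1.002. It was also not called with the i5 index as a covariate or without the time point term (edgeR, adjusted p = 0.0535 and 0.0745). Over the alternatives run without leaving out a mouse, its log2 fold change lay between these subset values. Among the genes with a positive difference, Lsr (angulin-1, which recruits tricellulin) stood at 0.22 ± 0.07 and Tjap1 at 0.31 ± 0.16 on the log2 scale (SE; edgeR, adjusted p = 0.369 and 0.747). Among those with a negative one, the next smallest p after Ildr2 were those of Cldn11, the claudin of myelin, at -1.94 ± 0.76 and Pard3b, a polarity protein, at -0.20 ± 0.12 (edgeR, adjusted p = 0.554 and 0.810). Cldn11 rested on 0 to 45 reads.

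The genotype difference of Cldn5 was not the same size at every time point. At ZT14 the control mice had 3277 and 4406 Cldn5 reads and the mutants 7273 and 8008. At ZT10 the controls had 2385 and 4321 and the mutants 4953 and 5708. In both, every mutant lay above every control. At ZT2 and ZT10 both controls carry one i5 index and both mutants the other, so that genotype and index cannot be told apart there. At ZT14 all 4 libraries share an index, but the library numbers of both mutants lie in a run apart from those of both controls. Genotype and library number thus cannot be told apart at ZT14. Mitochondrial genes took 17.4 and 15.3% of the reads in the ZT14 controls, the highest shares of the 24 libraries, against 7.89 and 10.7% in the ZT14 mutants, and the part of this in the Cldn5 difference was not tested. At ZT2 the order was the opposite, with 7427 and 7229 reads in controls and 5337 and 6279 in mutants. At ZT6 the controls had 5456 and 6400 reads and the mutants 4404 and 6934. At ZT18 the controls had 6511 and 7410 reads and the mutants 7682 and 7223, and at ZT22 they had 4529 and 5409 against 6740 and 5914. The ZT6 and ZT18 values overlapped between the genotypes, and those at ZT22 did not.

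The log2 fold change of Cldn5 was 0.89 ± 0.22 (SE) at ZT14 and 0.68 ± 0.22 at ZT10, and neither passed over all genes (edgeR, adjusted p = 0.108 and 0.707). At ZT14 0 of 9 genes were called, against 0.232% of all genes, and at ZT10 0 of 9, against 0.0645%. At ZT2 the Cldn5 value was -0.30 ± 0.22, at ZT6 -0.04 ± 0.22, at ZT18 0.13 ± 0.22 and at ZT22 0.34 ± 0.22. A joint test of the interaction of genotype with time point gave Cldn5 a p of 0.00637, the smallest of the 9 genes, and an adjusted p of 0.765 (edgeR). That test called 0 of 9 genes at an adjusted p under 0.05, against 0.0129% of all genes, and DESeq2 called 0 of 9 too. Without adjustment 1 of 9 had a p under 0.05, against 5.22% of all genes. Without the filter on low reads Cldn5 passed (edgeR, adjusted p = 0.00110). That fit called 183 of 25174 genes, against 2 in the main fit. The endothelial marker sum, which includes Cldn5, was 17238 and 18393 CPM in the ZT14 controls and 21114 and 20920 CPM in the ZT14 mutants. At ZT10 it was 15280 and 20021 CPM in controls and 17565 and 17168 CPM in mutants. The microglial sum was 3033 and 2407 CPM in the ZT14 controls and 3380 and 3378 CPM in the ZT14 mutants. Their part in the Cldn5 difference was not tested at single time points. With the microglial sum as a covariate, the interaction p of Cldn5 was 0.00536 (edgeR, adjusted p = 0.685).

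**Figure D3:**
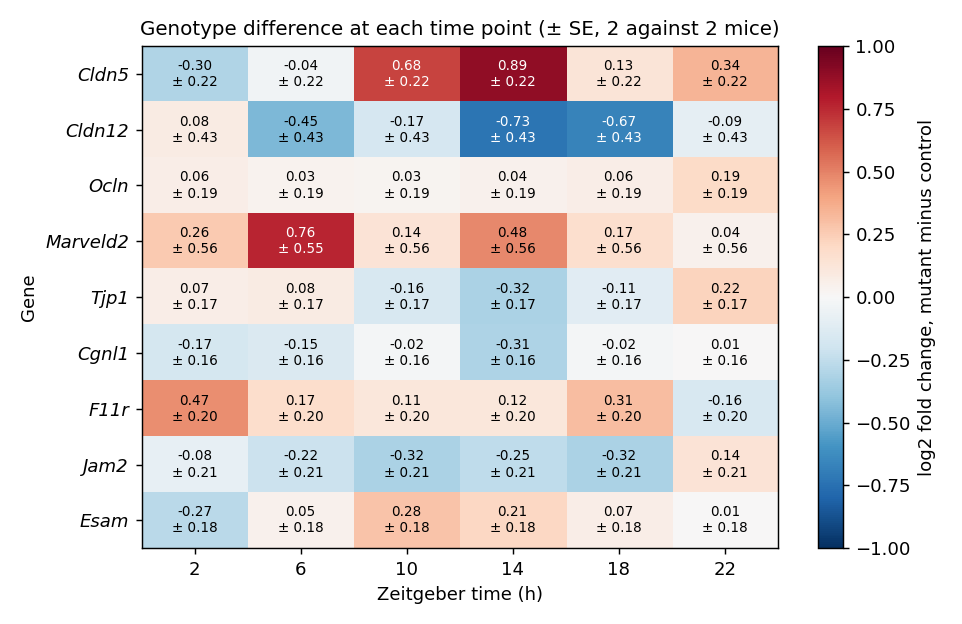
Genotype difference of each gene at each zeitgeber time, as log2 fold change of mutant against control (colour and upper number) with its SE (lower number), from 2 mice per genotype. The values of Cldn5 at ZT10 and ZT14 are 0.68 and 0.89, and Ocln stays between 0.03 and 0.19 at all 6 time points.

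The other 8 genes had interaction p-values of 0.259 or more (edgeR). Ocln was among the steadiest, with log2 fold changes of 0.03 to 0.19 over the 6 time points. F11r was higher in mutants by 0.47 ± 0.20 (SE) at ZT2, where the controls had 723 and 596 reads and the mutants 819 and 961 (edgeR, adjusted p = 0.702, with an unadjusted p of 0.0294). Tjp1 and Cgnl1 were lower in mutants by a log2 fold change of -0.32 ± 0.17 and -0.31 ± 0.16 at ZT14 (edgeR, adjusted p = 0.592 and 0.597). In the 8 ZT6 and ZT18 libraries the genotype difference of Cldn5 was smaller than in the other 16 by a log2 value of -0.36, a difference that was not called (edgeR, adjusted p = 1.00, with an unadjusted p of 0.130). That test called 0 of 9 genes, against 0% of all genes, with 0 of 9 at an unadjusted p under 0.05 against 4.38% of all, and DESeq2 called 0 of 9.

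Over the 6 time points, 5 of the 9 genes differed: Cgnl1, Esam, Ocln, Tjp1 and Jam2. edgeR's test of all time points together, with 5 degrees of freedom and genotype as a covariate, called 5 of 9 at an adjusted p under 0.05, against 13.4% of all genes, and DESeq2 called 6, against 18.2%. The adjusted p was 0.000799 for Cgnl1, 0.00440 for Esam, 0.00749 for Ocln, 0.0232 for Tjp1 and 0.0284 for Jam2 (edgeR). For Cldn5 it was 0.0790, and for Cldn12, F11r and Marveld2 it was 0.701, 0.917 and 0.957 (edgeR). Cldn5 passed with DESeq2 (adjusted p = 0.0217). Of the other tight junction genes 10 of 39 were called, and of the 14 endothelial markers other than Cldn5 10 were called.

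The called genes were high at ZT6 and ZT18 and low at different times in between. Cgnl1 stood at 9846 ± 800 reads at ZT6 and 9291 ± 266 at ZT18 and was lowest at ZT14, at 6190.5 ± 871 (SD, n = 4, both genotypes). At ZT14 the Cgnl1 reads were 5804 and 7448 in controls and 5469 and 6041 in mutants. Tjp1 was lowest at ZT2, at 8437 ± 773 reads, and stood at 11736 ± 1152 at ZT6 and 11428 ± 663 at ZT18. Ocln ran from 2376.5 ± 321 at ZT22 to 3438 ± 155 at ZT18, and Jam2 from 1370 ± 240 at ZT22 to 2065 ± 244 at ZT6. Esam was highest at ZT18, at 2543 ± 132 reads, and about as low at ZT22 (1716 ± 92.6) as at ZT10 (1762 ± 301).

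Without mouse replicate 1 of control ZT2 or replicate 2 of mutant ZT2, Tjp1 was no longer called (edgeR, adjusted p = 0.0832 and 0.0508). Jam2 was no longer called without replicate 1 or 2 of control ZT6, replicate 2 of control ZT22 or replicate 1 of mutant ZT6 (edgeR, adjusted p = 0.0582, 0.0533, 0.0632 and 0.0551). Cldn5 was called without replicate 1 of control ZT14, of mutant ZT2 or of mutant ZT6 (edgeR, adjusted p = 0.0409, 0.0362 and 0.0413).

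Within either set of libraries, no gene of the 9 passed. Among the 16 libraries of ZT2, ZT10, ZT14 and ZT22 the test called 0 of 9 genes, against 1.14% of all genes. At an unadjusted p under 0.05 there were 3 of 9, against 10.1% of all genes: Esam, with the smallest adjusted p of 0.261, and Cgnl1 and Cldn5, with an unadjusted p of 0.0250 and 0.0333 (edgeR). Between ZT6 and ZT18, within the other 8 libraries, it called 0 of 9, against 0.0582% of all genes, and 1 of 9 had an unadjusted p under 0.05, against 5.28% of all genes. This was Cldn5, which was higher at ZT18 by 0.32 on the log2 scale (edgeR, adjusted p = 0.685, with an unadjusted p of 0.00925). With the microglial marker sum as a covariate over all 24 libraries, 0 of 9 were called, against 1.13% of all genes, and the adjusted p of Cgnl1 was 0.0585 (edgeR). Before adjustment 4 of 9 had a p under 0.05, against 9.4% of all genes. With the i5 index as a covariate 2 of 9, Cgnl1 and Esam, were called (edgeR, adjusted p = 0.0392 and 0.0449), against 6.72% of all genes, and the calls of Ocln, Tjp1 and Jam2 were lost (edgeR, adjusted p = 0.0653, 0.111 and 0.458). There were then 5 of 9 at an unadjusted p under 0.05, against 16.9% of all genes.

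**Figure D4:**
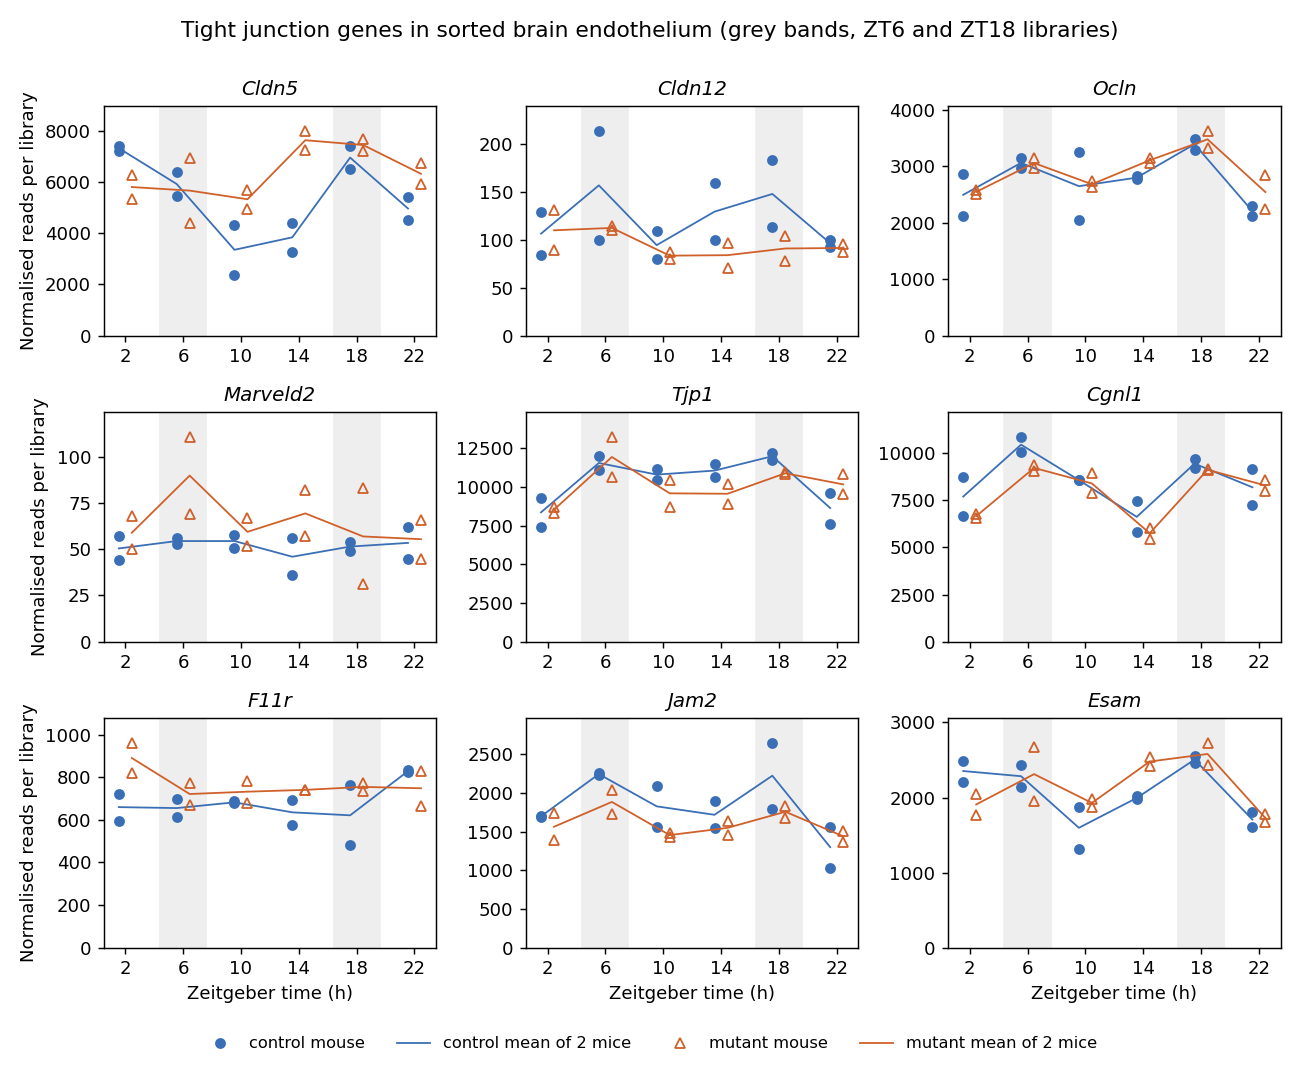
Normalised reads per library of each gene by zeitgeber time (h), with 1 point per mouse, lines through the means of 2 mice per genotype, and grey bands over the ZT6 and ZT18 libraries. Cgnl1 dips at ZT14 in both genotypes, and the Cldn5 lines of the genotypes part at ZT10 and ZT14, where each mutant lies above each control.

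Set against the other 16 libraries as a whole, the ZT6 and ZT18 libraries held more of the same 5 genes. edgeR called 5 of 9, all 5 of them higher, against 16.7% of all genes, of which 5.85% were higher and 10.9% lower, and DESeq2 also called 5. At an unadjusted p under 0.05 there were 5 of 9, against 26.8% of all genes. The median log2 difference of the 9 genes was 0.31, against -0.01 for all genes and 0.35 for the 14 endothelial markers other than Cldn5, of which 9 were called higher and 0 lower. Time of day and the library numbers cannot be told apart in this comparison.

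Jam2 ran from 1680 to 2649 reads at ZT6 and ZT18 (median 1937.5) and from 1033 to 2092 in the other 16 (median 1554), a log2 difference of 0.37 ± 0.09 (SE; edgeR, adjusted p = 0.00424). Cgnl1 ran from 9071 to 10878 reads (median 9305) against 5469 to 9161 (median 7660.5), a difference of 0.35 ± 0.09 (SE; edgeR, adjusted p = 0.00296). Only at this narrow edge did the Cgnl1 ranges overlap. Ocln ran from 2970 to 3632 reads (median 3226) against 2047 to 3253 (median 2685), a difference of 0.31 ± 0.09 (SE; edgeR, adjusted p = 0.0117). Esam ran from 1955 to 2728 reads (median 2448.5) against 1316 to 2538 (median 1926), a difference of 0.31 ± 0.10 (SE; edgeR, adjusted p = 0.0215). Tjp1 ran from 10629 to 13230 reads (median 11412.5) against 7429 to 11475 (median 9573.5), a difference of 0.28 ± 0.09 (SE; edgeR, adjusted p = 0.0235). For each of these 5 genes, 8 of the 8 ZT6 and ZT18 libraries lay above the median of the other 16. This count comes from the libraries that gave the calls and is no further support for them. Its share over all genes is not given here. The Tjp1 call was lost without mutant ZT6 replicate 1 (adjusted p = 0.0582) and the Esam call without mutant ZT18 replicate 1 (adjusted p = 0.0509, edgeR).

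The other 4 genes were not called. Cldn12 differed by 0.33 ± 0.17 (SE), Cldn5 by 0.25 ± 0.14 and Marveld2 by 0.17 ± 0.21 on the log2 scale, and F11r by -0.10 ± 0.09 (edgeR, adjusted p = 0.210, 0.250, 0.679 and 0.550). F11r had 4 of 8 libraries above the median of the other 16 and was the only one of the 9 with a negative estimate. Of the 14 endothelial markers outside the 9 genes, 13 had a positive estimate, from Emcn at 0.61 down to Mfsd2a, the negative one, at -0.016. The 9 that were called higher include Cdh5 (VE-cadherin of adherens junctions) at 0.53 ± 0.08, Pecam1 at 0.47 ± 0.08 and Abcb1a (P-glycoprotein) at 0.35 ± 0.07 (edgeR, adjusted p = 2.7e-06, 7.1e-05 and 0.00055). Within one genotype 0 of 9 genes were called, against 6.87% of all genes in controls and 9.91% in mutants (edgeR). Before adjustment there were 4 of 9 with a p under 0.05 in controls, against 17.8% of all genes, and 5 of 9 in mutants, against 20.7%. The log2 differences were 0.34 for Cgnl1 and 0.43 for Jam2 in the 12 control mice, and 0.37 and 0.32 in the 12 mutants. The libraries of a single i5 index are the 8 of ZT6 and ZT18 and 4 controls of ZT2 and ZT10. No mutant stands on the other side of that comparison. Among these libraries 0 of 9 were called, against 4.8% of all genes. Before adjustment 4 of 9 had a p under 0.05, against 15.1%. The estimates there were 0.31 for Cgnl1, 0.36 for Jam2, 0.34 for Ocln, 0.30 for Esam and 0.31 for Tjp1 (edgeR). With the microglial sum as a covariate 0 of 9 were called, against 0% of all genes, with 0 of 9 at an unadjusted p under 0.05, against 6.13% (edgeR), and the estimates of Ocln, Jam2, Esam and Tjp1 turned negative, at -0.45, -0.49, -0.70 and -0.27, while that of Cgnl1 was 0.42, with SEs of 0.39 to 0.43 for these 5 genes. That sum differs between the 2 sets without overlap, so the covariate and the sets are nearly the same contrast.

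**Figure D5:**
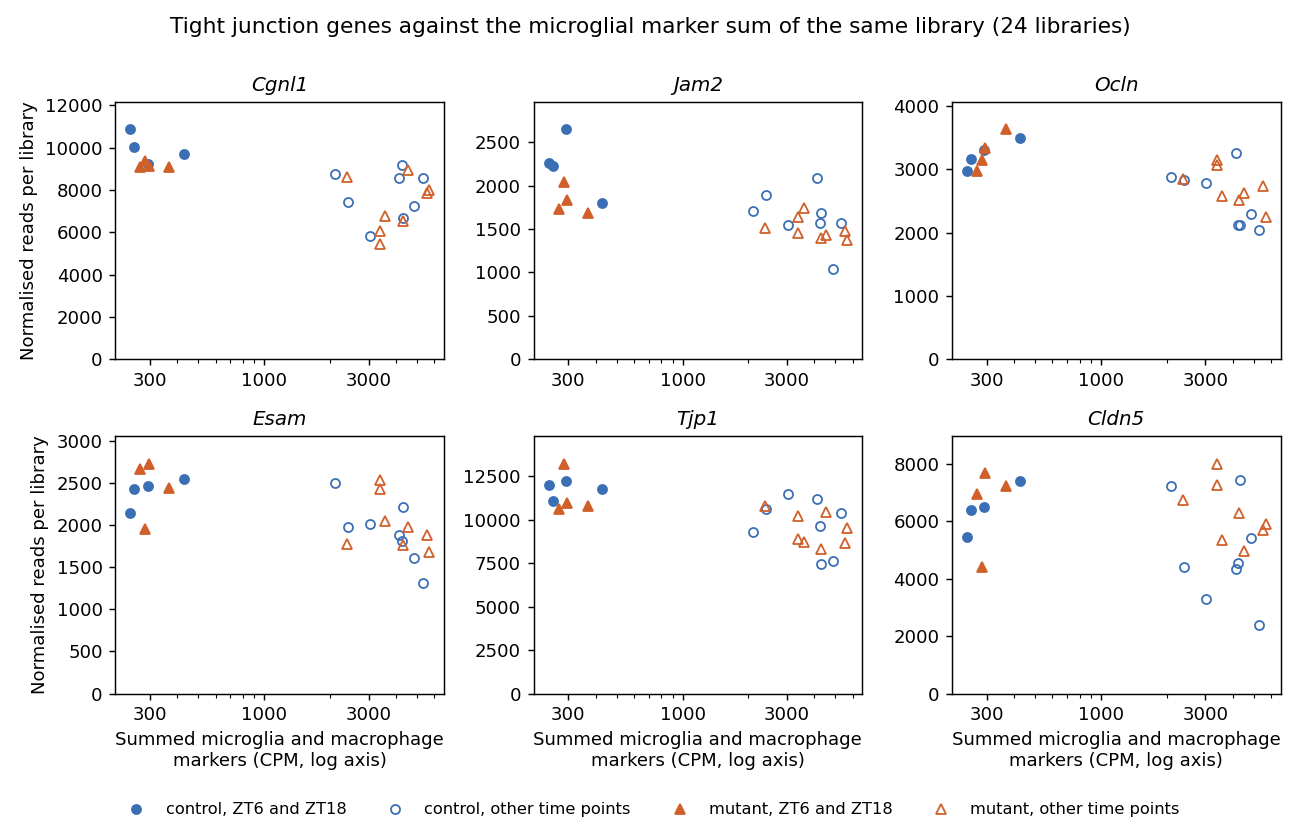
Normalised reads of 6 genes (vertical axis) against the summed CPM of 12 microglia and macrophage markers in the same library (horizontal log axis), with filled symbols for the 8 ZT6 and ZT18 libraries. These lie at 244 to 428 CPM and the other 16 at 2097 to 5659 CPM. In the Cgnl1, Jam2, Ocln, Esam and Tjp1 panels all filled symbols lie above the median of the open ones. These genes were called higher from the same libraries.

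Among the other tight junction genes, 9 of 39 were called higher at ZT6 and ZT18 and 4 lower, with a median difference of 0.07. Those called higher included Jam3 (JAM-C) at 0.67 ± 0.15, the angiomotin-like genes Amotl1 and Amotl2 at 0.36 ± 0.09 and 0.40 ± 0.11, Lsr at 0.33 ± 0.10, the actin-binding adaptor Afdn at 0.32 ± 0.08, the ZO-1 partner Ybx3 at 0.46 ± 0.13, Marveld1 at 0.59 ± 0.17 and the polarity gene Pard6g at 0.94 ± 0.27 (SE; edgeR, adjusted p of 0.00150 to 0.0130). Lower were the scaffold gene Magi2 at -1.51 ± 0.25, the polarity scaffold Patj at -0.78 ± 0.24, Cldn2 at -1.74 ± 0.57 and Tjp3 (ZO-3, of epithelia) at -2.78 ± 0.94 (SE; edgeR, adjusted p of 2.6e-05 to 0.0373). Magi2 ran from 23 to 65 reads at ZT6 and ZT18 (median 36) and from 61 to 197 in the other 16 (median 103.5). Cldn2 and Tjp3 rested on 0 to 220 and 0 to 98 reads. The 8 choroid plexus and ependyma markers summed to 336 to 1241 CPM at ZT6 and ZT18 and to 503 to 10844 CPM in the other 16, and their part in these 2 genes was not tested. Cldn2 was no longer called without any 1 of 6 libraries, at log2 differences of -1.75 to -1.47, and Tjp3 without any 1 of 8, at -2.85 to -2.37. Without control ZT22 replicate 2, the library with 10844 CPM, the adjusted p was 0.0676 for Cldn2 and 0.107 for Tjp3 (edgeR). Lsr was no longer called without control ZT18 replicate 2 (edgeR, adjusted p = 0.0610). Of these 12 named genes, 1, Magi2, was still called among libraries of a single i5 index and 0 with the microglial sum as a covariate.

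None of the 9 genes had a rhythm of 24 h that passed. The meta2d method combines JTK_CYCLE and Lomb-Scargle p-values, and with the study's limit of q under 0.6 it called 0 of 9 in control mice, against 0.31% of all genes, and 0 of 9 in mutants, against 0.0387%. At an unadjusted p under 0.05 it called 0 of 9 in either genotype, against 2.43% and 2.27% of all genes. Cldn5 had the smallest meta2d p in both genotypes, 0.313 in controls and 0.182 in mutants. With 1 mouse left out this p ran from 0.0533 to 0.697 in controls and from 0.0193 to 0.572 in mutants (meta2d). In mutants it was under 0.05 only without ZT6 replicate 2, and 0 of 9 genes came under a q of 0.6 in these fits. The cosine fitted to Cldn5 in all mice peaked at ZT23.9 with a relative amplitude of 27.3% in controls and at ZT17.1 with 17.2% in mutants. In controls Tjp1 followed with a p of 0.621 and a relative amplitude of 13.7%, peaking at ZT12.6. A cosinor fitted with edgeR gave unadjusted p-values of 0.0540 and 0.0435 for Cldn5 in controls and mutants and of 0.0429 and 0.943 for Tjp1. At a p under 0.05 that fit had 4.43% of all genes in controls and 4.16% in mutants. With the ZT6 and ZT18 libraries as a covariate, the Cldn5 p was 0.00745 and 0.0192 (edgeR, adjusted p = 0.467 and 0.643), and in controls 2 of 9 genes, Cldn5 and Tjp1, then came under an adjusted p of 0.6, against 3.28% of all genes. In mutants 0 of 9 did, against 2.36%. The rhythm fits and the interaction of genotype with time point were not run within the sets.

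The difference in rhythm between the genotypes was examined by adding products of genotype with a 24-h cosine and sine to the fit. It called 0 of 9 genes, against 0% of all genes, and DESeq2 called 0 of 9 too (edgeR for the main test). At an unadjusted p under 0.05 it had 1 of 9, Cldn5, against 4.26% of all genes. The unadjusted p of Cldn5 was 0.0317 (edgeR, adjusted p = 1.00).

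Across mice, the 9 genes were correlated within each set of libraries, since the 2 sets differ in level. Of 36 pairs of log2 CPM, 7 passed over the 24 libraries after adjustment (permutation test), against 0 of 36 among the 16 libraries and 1 of 36 among the 8. In the 16 libraries the highest r was that of Ocln with Esam (r = 0.64, rho = 0.61, permutation p = 0.00698 and 0.0144, adjusted p = 0.237 and 0.262), and it was 0.69 without the 2 libraries farthest from the median Ocln level. In the 8 libraries Cldn5 and Esam had r = 0.94 and rho = 0.83 (exact permutation test, p = 0.00109 and 0.0154, adjusted p = 0.0393 and 0.554). Without the 2 libraries farthest from the median Cldn5 level this r was 0.70. In the 16 libraries the same pair had r = 0.61 (permutation p = 0.0132, adjusted p = 0.237).

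For each gene, the most alike profiles among 7712 genes with a mean of 100 or more reads were found by r of log2 CPM over the 24 libraries, as a description that includes the difference between the sets. For Cldn5 they were Parvb (r = 0.89, and 0.89 and 0.83 within the 16 and the 8 libraries), Mxra7 (0.83) and Adam15 (0.83). For Ocln they were Abcb1a (0.90, and 0.90 and 0.49 within the sets), Sptan1 (0.85) and Ly6c1 (0.84). For Tjp1 they were Ahnak (0.89), Rps6ka3 (0.87) and Golim4 (0.87), and for Cgnl1 Smc1a (0.87, but 0.07 within the 8 libraries), Sptbn1 (0.85) and Topors (0.85). Jam2 was most alike to Rai14 (0.85), Fli1 (0.84) and Prom1 (0.81), and Esam to Ephb4 (0.86), Car4 (0.86) and Rapgef3 (0.84). The genes with fewer reads reached lower values: Cldn12 with Spopl (0.72), Commd7 (0.67) and Il2rg (0.66), Marveld2 with Traf6 (0.70), Sel1l (0.66) and Lats1 (0.66), and F11r with Mccc1 (0.72), Nf1 (0.68) and Aagab (0.67).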

How the data were processed

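Strand-specific libraries were made from sorted cells. Reads were aligned by the authors with STAR 2.5.3a (GRCm38), who merged lanes with SAMtools 1.3.1 (versions from the submitters' processing notes) and normalized gene-level reads with PORT, which the methods name with Ensembl models. The deposited values are whole-number read counts after that normalization, and were tested as counts, so the original depth is not in them. Each mouse is 1 replicate. Positions are those of GENCODE for GRCm38, where 53274 of the 53465 genes were found.

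A gene was tested if 6 mice of one genotype had 5 reads or more. edgeR 4.0.16 (R 4.3.3, TMM, quasi-likelihood test) was fitted to all 15493 of them, with Benjamini-Hochberg adjustment over all genes and a threshold of 0.05. SEs and 95% intervals (normal approximation) are on the log2 scale. Alternatives were DESeq2 1.42.0, other scalings, filters and covariates, library subsets, and leaving out each mouse. Meta2d was rewritten in Python 3.11.15 with SciPy 1.17.1. Plots used matplotlib 3.10.9. Counts were simulated for the 15493 genes with a single dispersion of 0.09, and 200 genes were given a log2 change of 1. There the genotype test recovered 97.5% of the changed genes and the ZT6 and ZT18 test 95.5%. The time point test recovered 36%, the rhythm difference 47% and the genotype difference between the sets 5%. In the tight junction genes chosen by name, log2 estimates were smaller than 1. They ran from -0.34 (Cldn12) to 0.31 (Marveld2) between genotypes and from -0.10 (F11r) to 0.37 (Jam2) between the sets. Changes of that size were not simulated, so these percentages do not give the power to detect them. On simulated rhythms meta2d recovered 51.5% in controls and 56.5% in mutants at q under 0.6. The interaction of genotype with time point was not simulated.

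The genes named are the 9 members in every test, Arntl as the targeted gene, of the other tight junction genes those that passed plus the 3 smallest p in each direction of the genotype and ZT6 and ZT18 comparisons, and for each member the 3 genes of highest r. One gene that this rule names is not reported here. The endothelial markers Emcn, Mfsd2a, Cdh5, Pecam1 and Abcb1a were named as examples after their values were seen. The members and lists were chosen with earlier results of these data known. The interaction of genotype with time point, the contrasts at single time points, the microglial covariate and the ETS and GC box motifs were chosen after seeing the data. Marker sums of the oligodendrocyte lineage were 383 to 732 CPM at ZT6 and ZT18 against 853 to 2747 in the other 16 libraries, and those of genes that respond to cell isolation 10058 to 13115 against 3480 to 13587. The labels do not say which mouse was sorted on which of the 2 sorters.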

Additional observations from a re-analysis of the deposited data

Results flagged for a closer look

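In the main fits the genotype difference of Cldn5 varied over the time points by the test of that difference, before adjustment only. The interaction of genotype with time point had an unadjusted p of 0.00637 and an adjusted p of 0.765, and the interaction with the 24-h cosine and sine an unadjusted p of 0.0317 and an adjusted p of 1.00 (edgeR's quasi-likelihood test with Benjamini-Hochberg adjustment). In this comparison every mutant was above every control at ZT10, ZT14 and ZT22 and every mutant was below every control at ZT2. Genotype cannot be told apart from the index of the library adapters at ZT2 and ZT10, or from the library number at ZT14. With so few mice per genotype at each time point, such a separation can also arise by chance. The share of all genes that separate in this way is not given here. Neither interaction passes over all genes in the main fits. Without the filter on low reads, Cldn5 passed in the interaction with time point, in a fit that called 183 genes against 2 in the main fit.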

How the results depend on the processing

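Reads normalised to 1 size hide the depth of each library, so low genes (Marveld2, Cldn12) limit what can be detected. Of the 9 genes, 0 were called between genotypes under all alternatives run except testing without a filter, which called 1 (Cldn5), and which also called 1 in the genotype by time point test. For the 6 time points, 5 were called in the main test, 0 in the 16 libraries, 0 in the 8 libraries, 0 with the microglial covariate and 2 with the i5 index as covariate. For the ZT6 and ZT18 libraries, 5 were called in the main test and 0 in control mice only, 0 in mutant mice only, 0 in libraries of one i5 index and 0 with the microglial covariate. Fewer mice enter the subsets, and the cause of the other losses was not tested. The rhythm call in control mice went from 0 to 2 in the edgeR cosinor with the sets as covariate. Correlating pairs went from 7 to 0 in the 16 and 1 in the 8 libraries. The microglial covariate turned the ZT6 and ZT18 estimates to -0.44 for Cldn5, -0.45 for Ocln, -0.18 for Marveld2, -0.27 for Tjp1, 0.63 for F11r, -0.49 for Jam2, -0.70 for Esam, -0.53 for Afdn, -0.035 for Amotl1, -0.76 for Amotl2 and -0.14 for Lsr, and with the longest transcript the log2 ratio of F11r to Jam2 in mutants turned to -0.28.

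Leaving out 1 mouse at a time, 0 members were called between genotypes, 4 to 6 over the time points and 4 to 5 for the sets. The mice behind these changes are named with the results above. Among the other genes, the ZT6 and ZT18 calls of Cldn2 and Tjp3 were lost without 6 and 8 single libraries, at adjusted p of 0.0510 to 0.0676 and 0.0517 to 0.107 (edgeR).

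Over all genes, the genotype test called 42, and 141 without a filter, 99 with DESeq2, 0 without the time point term, 7 with the i5 index, 3 in the 8 libraries and 25 to 68 with 1 mouse left out. The time point test called 2070, and 175 with the microglial covariate, 176 in the 16 libraries, 9 in the 8 and 1041 with the i5 index. The ZT6 and ZT18 test called 2595, and 1064 in controls, 1535 in mutants, 744 for one i5 index and 0 with the microglial covariate. The genotype by time point test called 2, and 183 without a filter, 79 with DESeq2 and 0 to 9 with 1 mouse left out. The rhythm difference called 0, and 52 without a filter, 1 with DESeq2 and 1 with the microglial covariate. The genotype difference between the sets called 0, and 18 without a filter and 1 with DESeq2. At q under 0.6 meta2d called 48 genes in controls and 6 in mutants, and 65 and 24 with TMM-scaled values. With 1 mouse left out it called 0 to 82 in controls and 0 to 24 in mutants.

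The replicate numbers are not in the sample titles. Mice with the same number did not vary together (r of -0.01 to 0.03). This cannot tell whether mice were paired in another way, and the replicate block uses the same numbers. With a replicate block, 0 members were called between genotypes, 6 over the time points, with Cldn5 added (edgeR, adjusted p = 0.0475), 5 for the sets, 0 for the rhythm difference and 0 for the genotype by time point test.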
